A study of Sus scrofa with 8 samples.

Results

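Genes of the cell cycle and mitosis were followed in 8 skin biopsies of Yorkshire swine, 4 taken after an injection of the cytokine interleukin 15 (IL-15) into the dermis and 4 from skin that was not injected. The genes were given as 34 symbols of proliferation markers, cyclins, replication proteins and mitotic kinases, motors and checkpoint proteins, and a gene counted as a member when the deposited count table carried its symbol. This found 27 members among the 31907 genes of the table, and all 27 had enough counts to be tested. Another 6 symbols (MKI67, CCNE1, RRM2, AURKA, BUB1B and NUSAP1) had no symbol in the table and were found through a gene name table or an Entrez gene number. They are described beside the members and are not counted among them. No gene was matched to the remaining symbol, cyclin A2 (CCNA2), which was not analysed here.

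A dividing cell passes from G1 into S phase when cyclin E with its kinase partner releases E2F factors, which switch on the genes that license and copy DNA. Cyclin B with CDK1 then drives entry into mitosis, the spindle checkpoint holds the chromosomes until they are attached, and the anaphase-promoting complex with CDC20 and UBE2C ends mitosis by marking cyclin B for destruction. In normal skin most dividing cells are keratinocytes of the basal layer and cells of the hair bulb, and IL-15 is known as a growth and survival signal of T cells and NK cells.

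The animals were wild type and are called pig 13 and pig 14. IL-15 was given at 200 ng per site, dissolved in 100 µl of saline, and the biopsy followed 3 h later, at grid sites 12c and 12e of pig 13 and 12c and 12d of pig 14. The control sites, 6b and 7b of pig 13 and 6b and 7e of pig 14, had no injection. The injury of the needle, the saline and the place on the grid therefore cannot be told apart from IL-15, and neither age nor sex of the animals is stated. Biopsies of 1 pig are not separate animals, so p-values measure the spread between sites within these 2 pigs. RNA came from whole biopsies, in which fewer dividing cells and less RNA per cell cannot be told apart.

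Total counts ran from 28471089 to 36070107 per biopsy, and mitochondrial genes held 3.09% to 4.69% of them. The defining markers of skin, the keratin KRT5 and the dermal collagen gene COL1A1, were abundant in every biopsy. The control biopsy from site 7b of pig 13 stood apart in its makeup. Its summed level of 8 fibroblast markers was 19420 CPM (reads of a gene scaled to a common library size), against 77180 to 192900 CPM in the other biopsies, and its 13 hair follicle markers summed to 1443 CPM against 3475 to 5348 CPM. Its 10 basal keratinocyte markers summed to 22680 CPM against 7866 to 16940 CPM elsewhere. The main results of the members are therefore given with and without that biopsy. For the other gene lists only the count of genes called after injection was checked without it, and tests of cell type markers use all 8 biopsies.

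All 27 members were expressed, at low to moderate levels per gene length. Mean RPKM (CPM per kilobase of gene length) over the 8 biopsies ran from 0.516 ± 0.195 (SD, n = 8) for CDC6, which loads the replicative helicase onto DNA, to 13.4 ± 4.797 for UBE2C, the ubiquitin-conjugating enzyme of the anaphase-promoting complex. After UBE2C came CDC20 at 9.64 ± 3.98 RPKM, the helicase subunit MCM4 at 7.62 ± 1.29, thymidylate synthase (TYMS) at 7.38 ± 4.39 and the DNA topoisomerase TOP2A at 7.15 ± 1.68. The lowest after CDC6 were the transcription factor FOXM1 at 1.002 ± 0.297 RPKM and CDK1 at 1.11 ± 0.272. For each member the range over biopsies overlapped that of the next member in this order. UBE2C was nevertheless above CDC20 in all 8 biopsies, and FOXM1 was above CDC6 in all 8. FOXM1 shares 1698 of its 3548 exonic bases with TEX52, and PCNA shares 1519 of 6747 with TMEM230, each on the same strand, so the levels of FOXM1 and PCNA per length are uncertain.

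The members differed widely in how even they were across the skin sites. PCNA, the sliding clamp of DNA polymerases, ran from 24.4 to 27.9 CPM, a 1.15-fold range. TYMS, which makes the thymidine nucleotide for DNA synthesis, ran from 7.75 to 37.5 CPM, a 4.84-fold range. The highest biopsy was a median of 1.99-fold above the lowest over the 27 members, 1.81-fold over all 19862 genes tested and 1.44-fold over PCNA and the 5 MCM genes. The heatmap of all 33 genes shows that the widest ranges came with high values in the pig 13 control of site 7b.

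**Figure D1:**
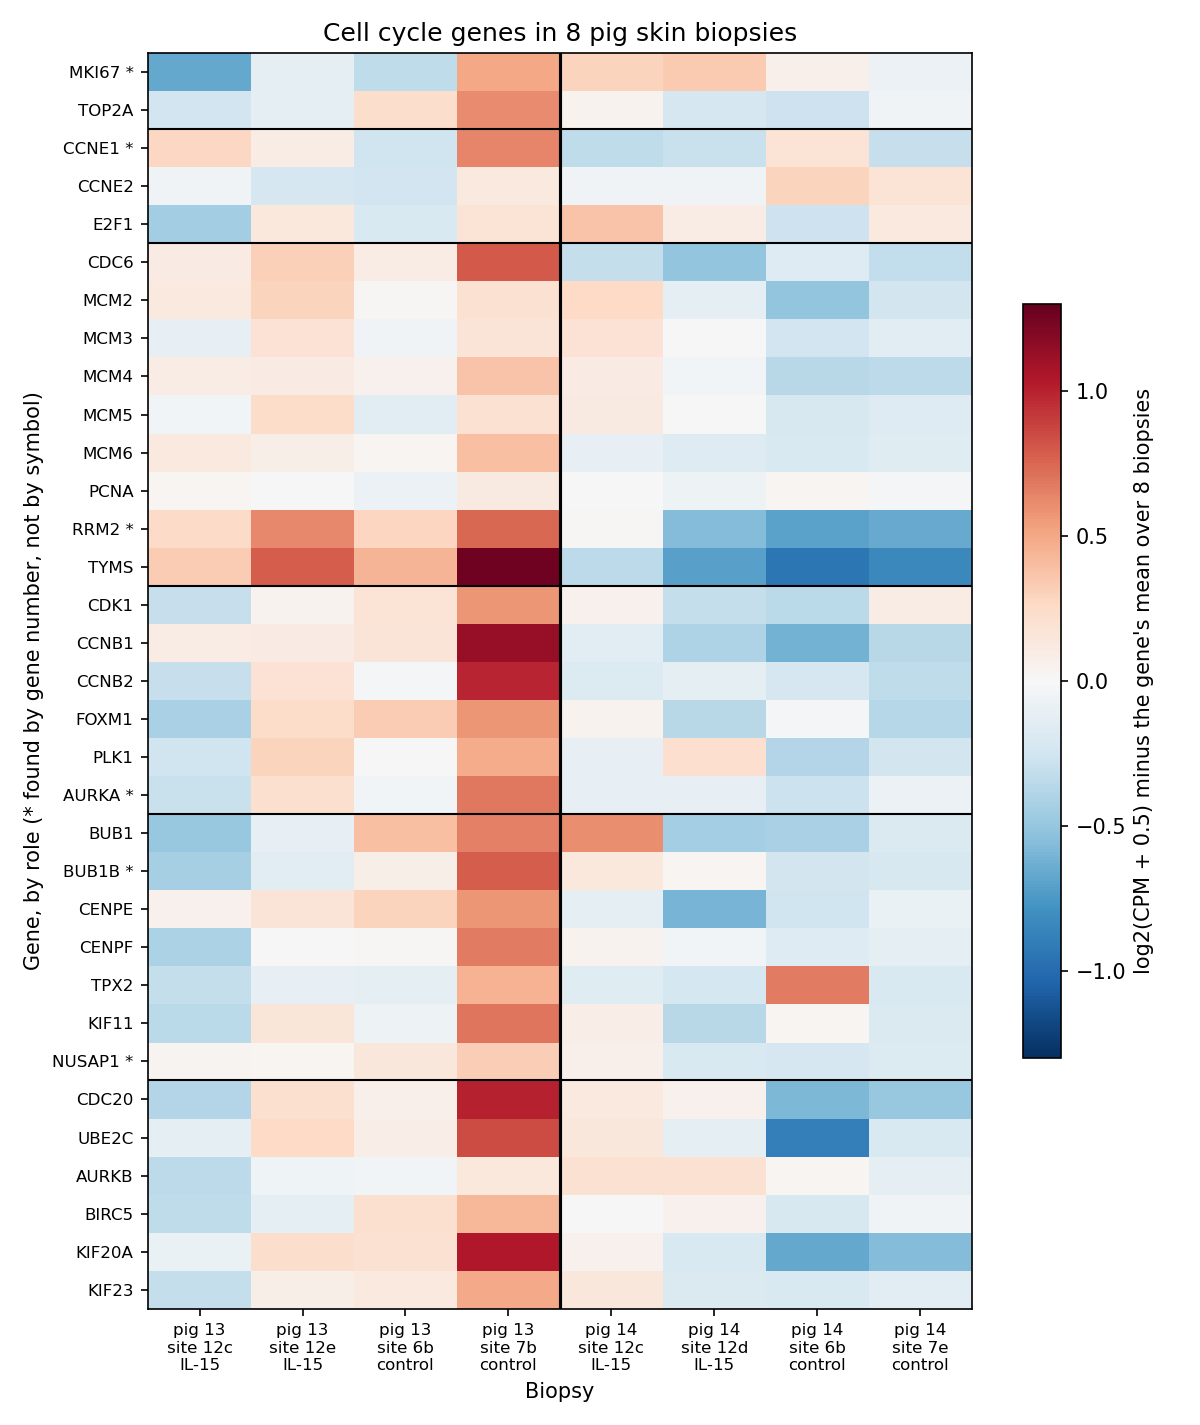
Level of each of the 33 cell cycle genes in each of the 8 biopsies, as log2(CPM + 0.5) minus the gene's mean over the biopsies; rows are genes in the order of their roles, columns are biopsies, and asterisks mark the 6 genes found without a symbol in the table. The pig 13 control of site 7b is the highest biopsy for 20 of the 27 members, TYMS is high in all 4 biopsies of pig 13, and TPX2 is highest in the pig 14 control of site 6b.

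No cell cycle gene was called changed 3 h after IL-15. With pig as a block, edgeR's quasi-likelihood test with Benjamini-Hochberg adjustment called 0 of the 27 members higher and 0 lower, and the smallest adjusted p was 0.964. Over all genes the same test called 7 higher (0.0352%) and 0 lower (0%). DESeq2 and limma-voom with sample weights also called 0 members, each with 1 at an unadjusted p under 0.05. At an unadjusted p under 0.05 there was 1 member, the spindle assembly factor TPX2, against 902 of all genes (4.54%). The log2 change was above 0 for 8 members and below 0 for 19, with a median of -0.14 against -0.01 over all genes. No member had every injected biopsy above every control of its own pig, a pattern shown by 3.11% of all genes, and none had every injected biopsy below, shown by 2.83%.

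That lean below 0 depended on single biopsies of pig 13. Without the pig 13 control of site 7b, 17 members were above 0 and 10 below, the median was 0.06 against -0.00293 over all genes, and edgeR again called 0 members (smallest adjusted p 0.811, 3 at an unadjusted p under 0.05), while 19 genes were called in all. Without injected site 12c of pig 13 the median was -0.03, with 14 members below 0. The precision differed between members. For PCNA the 95% interval of the log2 change was -0.22 to 0.17, and for CDC20 it was -0.81 to 0.75.

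**Figure D2:**
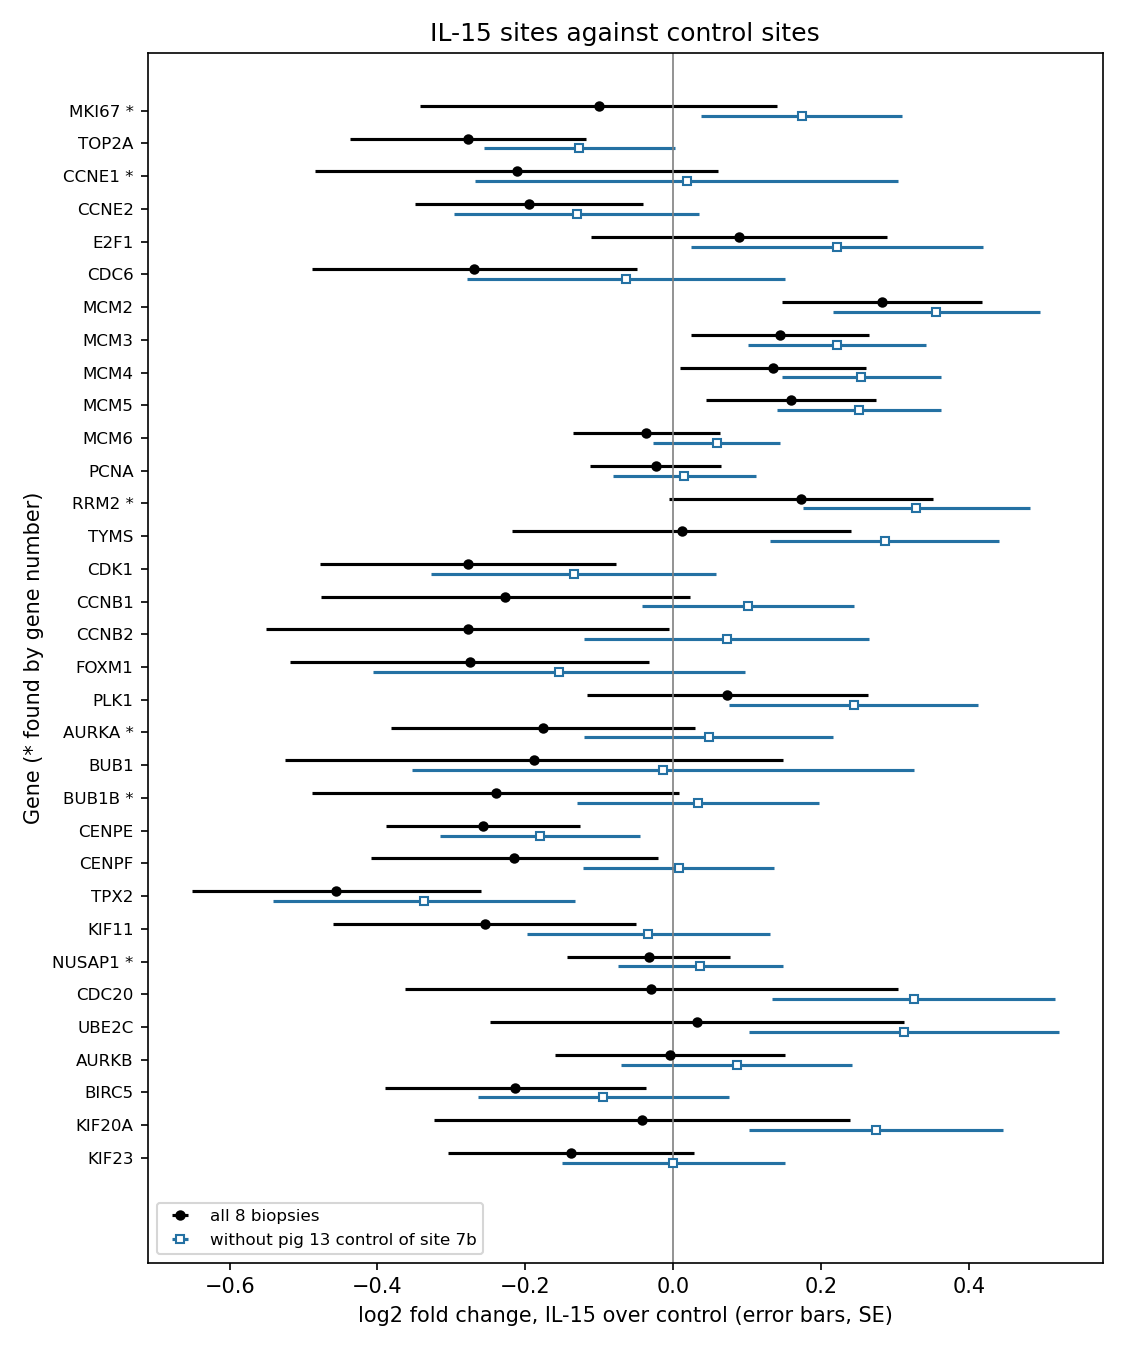
Log2 fold change of injected over control biopsies with its standard error for each cell cycle gene, with pig as a block; filled circles use all 8 biopsies and open squares leave out the pig 13 control of site 7b. With all biopsies 19 of 27 members lie below 0, and without that biopsy 10 do.

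Among the proliferation markers, TOP2A (ENSSSCG00000017473, Sscrofa11.1 chromosome 12, 22001336 to 22028454) read 33.4 and 36.6 CPM at the injected sites of pig 13 and 41.1 and 34.2 CPM at those of pig 14. Its controls read 46.7 and 61.2 CPM in pig 13 and 32.9 and 38.5 CPM in pig 14. Both injected sites of pig 13 lay below both controls of that pig, whereas in pig 14 the groups overlapped, and the log2 change was -0.28 ± 0.16 (SE). MKI67 (ENSSSCG00000026302, chromosome 14, 137266634 to 137295666) encodes the Ki-67 protein that coats mitotic chromosomes. It read 35.98 and 52.2 CPM at the injected sites of pig 13 against 45.3 and 81.1 CPM in its controls. In pig 14 it read 69.9 and 72.8 CPM at the injected sites against 59.9 and 54.4 CPM in the controls, so that both injected sites were above both controls there. Its log2 change over both pigs was -0.10 ± 0.24.

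The genes that control the step from G1 to S phase were at low levels. E2F1, the transcription factor of S phase genes, read 4.86 and 7.56 CPM at injected sites of pig 13, 8.94 and 7.33 CPM at those of pig 14, 5.86 and 7.76 CPM in controls of pig 13 and 5.57 and 7.45 CPM in controls of pig 14. Injected and control sites overlapped in both pigs. CCNE2, a cyclin E, read 4.83 to 5.52 CPM at the 4 injected sites and 4.72 to 7.10 CPM at the 4 controls, with a log2 change of -0.19 ± 0.15. CCNE1, the other cyclin E, averaged 1.87 ± 0.489 CPM (SD, n = 4) at injected sites and 2.14 ± 0.836 CPM at controls.

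In the group that licenses and copies DNA, 5 of 8 members lay above 0. MCM2 (ENSSSCG00000011624, chromosome 13, 72630380 to 72657620), a subunit of the helicase, had the smallest p of the group. It read 20.3 and 22.7 CPM at injected sites of pig 13 and 22.3 and 16.9 CPM at those of pig 14, and its controls read 18.7 and 21.3 CPM in pig 13 and 12.8 and 15.6 CPM in pig 14. Both injected sites lay above both controls in pig 14 but not in pig 13, and the log2 change of 0.28 ± 0.14 was not called (adjusted p = 0.964, edgeR). MCM4, the most abundant of the group per length, read 28.1 to 31.2 CPM at injected sites and 22.3 to 37.5 CPM at controls. The log2 changes of the 5 MCM genes ran from -0.04 for MCM6 to 0.28 for MCM2. PCNA read 26.2, 25.7, 25.7 and 24.6 CPM at injected sites and 24.4, 27.9, 26.2 and 25.4 CPM at controls, with a change of -0.02 ± 0.09. RRM2, a subunit of the reductase that makes deoxynucleotides, averaged 49.6 ± 16.3 CPM at injected sites and 46.5 ± 23.2 CPM at controls. RRM2 and TYMS differed between the pigs and also between sites of 1 pig. Within pig 13 RRM2 ran from 53.4 to 75.7 CPM and TYMS from 19.4 to 37.5 CPM.

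Among the genes of mitotic entry, CDK1 (ENSSSCG00000010214, chromosome 14, 64233988 to 64395453) read 5.02 and 6.51 CPM at injected sites of pig 13 and 7.16 and 9.56 CPM in its controls. In pig 14 it read 6.55 and 4.98 CPM at injected sites and 4.81 and 6.75 CPM in controls, where the groups overlapped. Its log2 change was -0.28 ± 0.20. Cyclin B1 (CCNB1), the partner that activates CDK1, read 11.9 and 12.0 CPM at injected sites of pig 13 against 12.6 and 24.9 CPM in controls, and 10.1 and 8.27 CPM at injected sites of pig 14 against 7.10 and 8.55 CPM. The remaining members of this group, CCNB2, FOXM1 and the kinase PLK1, had log2 changes of -0.28, -0.28 and 0.07, and the kinase AURKA had -0.18.

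All 5 members of the spindle and checkpoint group lay below 0, with a median log2 change of -0.25. TPX2 (ENSSSCG00000007235, chromosome 17, 35431370 to 35484760), which activates Aurora A and helps to nucleate spindle microtubules, had the lowest value of all members at -0.46 ± 0.20. Its p was 0.0427 before and 0.964 after adjustment in edgeR, and its 95% interval was -0.89 to -0.02. TPX2 read 14.1 and 16.3 CPM at injected sites of pig 13, 15.7 and 14.9 CPM at those of pig 14, 16.0 and 24.2 CPM in controls of pig 13 and 28.3 and 15.3 CPM in controls of pig 14. In each pig 1 control was far above the other 3 biopsies, and injected and control sites overlapped. The kinetochore proteins CENPE and CENPF had changes of -0.26 and -0.21, the motor KIF11 of the spindle poles -0.25 and the checkpoint kinase BUB1 -0.19. Its relative BUB1B had -0.24 and the microtubule-binding NUSAP1 -0.03.

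The 6 members of mitotic exit and cytokinesis averaged close to 0 over both pigs, with a median of -0.04. UBE2C read 9.66 and 12.8 CPM at injected sites of pig 13 against 11.3 and 19.5 CPM in its controls, and 11.8 and 9.65 CPM at injected sites of pig 14 against 5.50 and 9.15 CPM. Its injected sites overlapped the controls in pig 13 and lay above them in pig 14. BIRC5, or survivin, which works with the kinase AURKB in the chromosomal passenger complex, had the smallest p of this group and a change of -0.21 ± 0.18. It read 5.79 and 6.70 CPM at injected sites of pig 13 against 8.58 and 10.1 CPM in controls, and 7.43 and 7.68 CPM at injected sites of pig 14 against 6.34 and 7.14 CPM. The order of the groups was thus opposite in the 2 animals. AURKB and the cytokinesis motors KIF20A and KIF23 had changes of -0.00471, -0.04 and -0.14.

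The control biopsy of site 7b in pig 13 held the highest level of 20 of the 27 members (74.1%), against 19.8% of all genes. That biopsy was highest for TOP2A, all 5 genes of mitotic entry, 5 of 6 genes of mitotic exit and cytokinesis, 4 of 5 spindle and checkpoint genes, 5 of 8 licensing and synthesis genes and neither of the 2 G1 to S genes. The 27 members summed to 640.2 CPM there, 454.2 CPM in the other control of pig 13, 470 and 398.6 CPM at the injected sites of pig 13, and 365.3 to 445.9 CPM in the 4 biopsies of pig 14. Set against the other control of the same pig, the members were a median of 1.32-fold higher at site 7b, and over all genes the median ratio was 1. The ratio was 2.13 for CCNB2, 1.98 for CCNB1, 1.95 for CDC20, 1.81 for KIF20A and 1.15 for PCNA. These are ratios of 1 biopsy to another and carry no test.

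The same biopsy held the highest summed level of basal keratinocyte markers and the lowest of fibroblast and hair follicle markers, as given above. Its 10 differentiated keratinocyte markers summed to 26100 CPM, against 6615 to 13570 CPM elsewhere. Of the 10 basal keratinocyte markers 8 were highest there, with a median ratio of 1.48 to the other control of the pig. Of the differentiated markers 7 were, with a median ratio of 1.66, and none of the 13 hair follicle markers was. At site 7b the median deviation of the members from their means was 0.57 on the log2 scale, and that of the basal markers was 0.78. In 4 other biopsies the medians of the members and of the basal markers lay closer together than at site 7b, and in 3 they lay farther apart. Those 3 were the pig 14 controls and injected site 12c of pig 13. In the pig 14 controls the median deviation of the members from their means was -0.19 at site 7e and -0.25 at site 6b on the log2 scale, and that of the basal markers was -0.70 and -0.63. At injected site 12c of pig 13 the members were at -0.25 and the basal markers at 0.19. The part of keratinocytes in the members' levels was not tested.

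**Figure D3:**
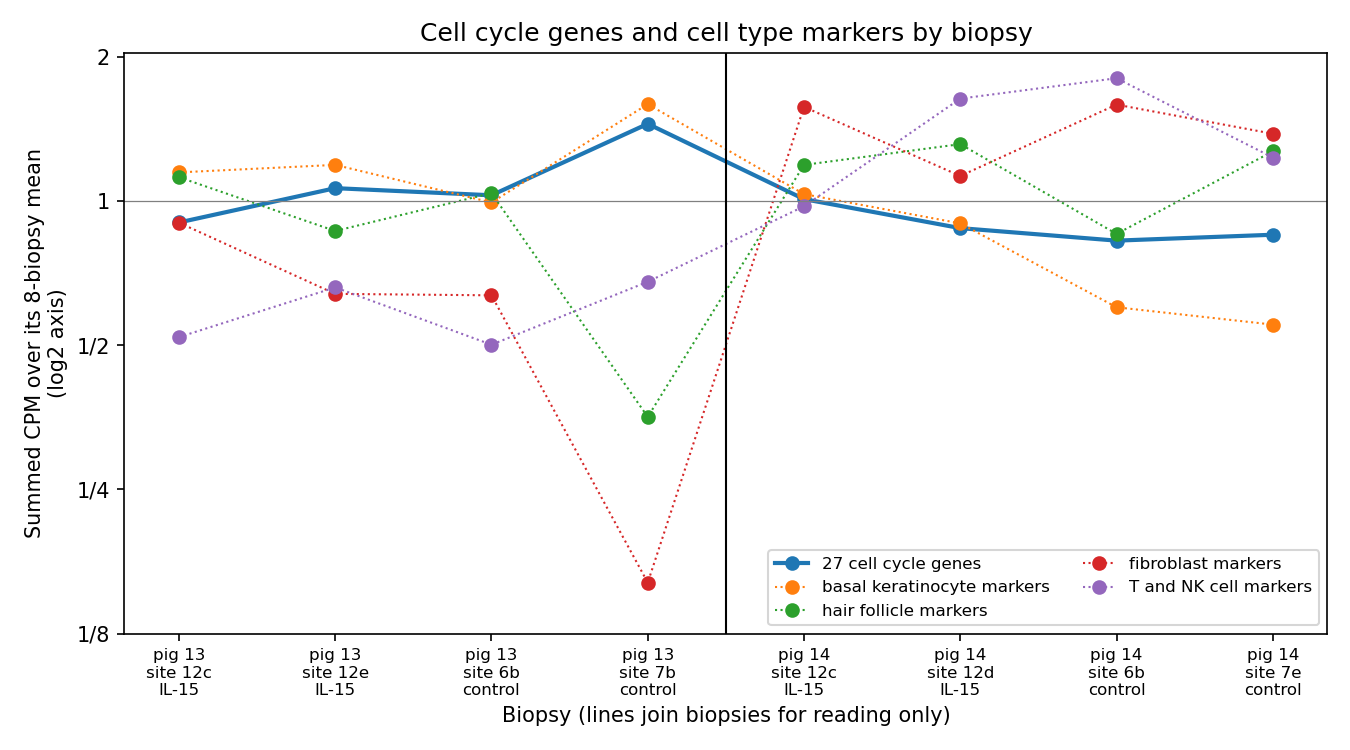
Summed CPM of the 27 cell cycle genes and of 4 lists of cell type markers in each biopsy, divided by the list's mean over the 8 biopsies, on a log2 axis. At site 7b of pig 13 the cell cycle genes (640.2 CPM) and the basal keratinocyte markers (22680 CPM) are at their highest, and the fibroblast markers (19420 CPM) and hair follicle markers (1443 CPM) at their lowest.

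The 2 animals leaned in opposite directions after injection, without a called difference. In pig 13 the response, the log2 change of injected over control sites, was below 0 for 25 of 27 members with a median of -0.41. In pig 14 it was above 0 for 20 of 27 with a median of 0.17, while the medians over all genes were -0.01 in both pigs. The response was lower in pig 13 than in pig 14 for 24 members, by a median of 0.53 on the log2 scale. A term for the interaction of pig and treatment, tested with edgeR, called 0 members (smallest adjusted p 0.499) and 0 of all genes (0%). DESeq2 called 0 members and 89 of all genes, and edgeR without a filter on low counts called 0 members and 8 genes. At an unadjusted p under 0.05 there were 7 members against 8.22% of all genes. The basal keratinocyte markers leaned the same way as the members in each pig. Their median response was -0.34 in pig 13, with 9 of 10 below 0, and 0.64 in pig 14, with 10 of 10 above 0. The median difference was -0.90, with 0 of 10 called by edgeR and 5 at an unadjusted p under 0.05. The 13 hair follicle markers had median responses above 0 in both pigs, at 0.21 in pig 13 and 0.32 in pig 14. The 10 differentiated keratinocyte markers had medians below 0 in both, at -0.33 and -0.47. The part of these cell types in the members' responses was not tested.

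The members with the smallest p for this term were KIF20A, TOP2A and CDC20. KIF20A, which moves along the central spindle in late mitosis, read 12.2 and 15.2 CPM at injected sites of pig 13 against 14.99 and 27.1 CPM, and 13.5 and 11.2 CPM at injected sites of pig 14 against 7.98 and 8.62 CPM. Its injected sites were above both controls in pig 14 and overlapped them in pig 13, and its responses differed by -1.20 ± 0.37 (pig 13 minus pig 14, adjusted p = 0.499, edgeR). CDC20 read 12.7 and 19.3 CPM at injected sites of pig 13 against 17.4 and 33.8 CPM, and 18.2 and 17.3 CPM at injected sites of pig 14 against 10.9 and 11.7 CPM. The difference for CDC20 was -1.33 ± 0.44 (adjusted p = 0.514, edgeR) and that for TOP2A was -0.70 ± 0.23 (adjusted p = 0.508).

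This contrast also turned on the control biopsies of pig 13. Without site 7b the median response in pig 13 was -0.03 with 16 of 27 members below 0, and the median difference between the pigs was -0.30. Without injected site 12c the median in pig 13 was -0.25. Without the control of site 6b, which leaves site 7b as the only control of pig 13 and assumes that it varies like the others, the median in pig 13 was -0.67. Under that setting edgeR called CDC20, KIF20A and CCNB1 lower in the response of pig 13, among 313 genes called in all.

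**Figure D4:**
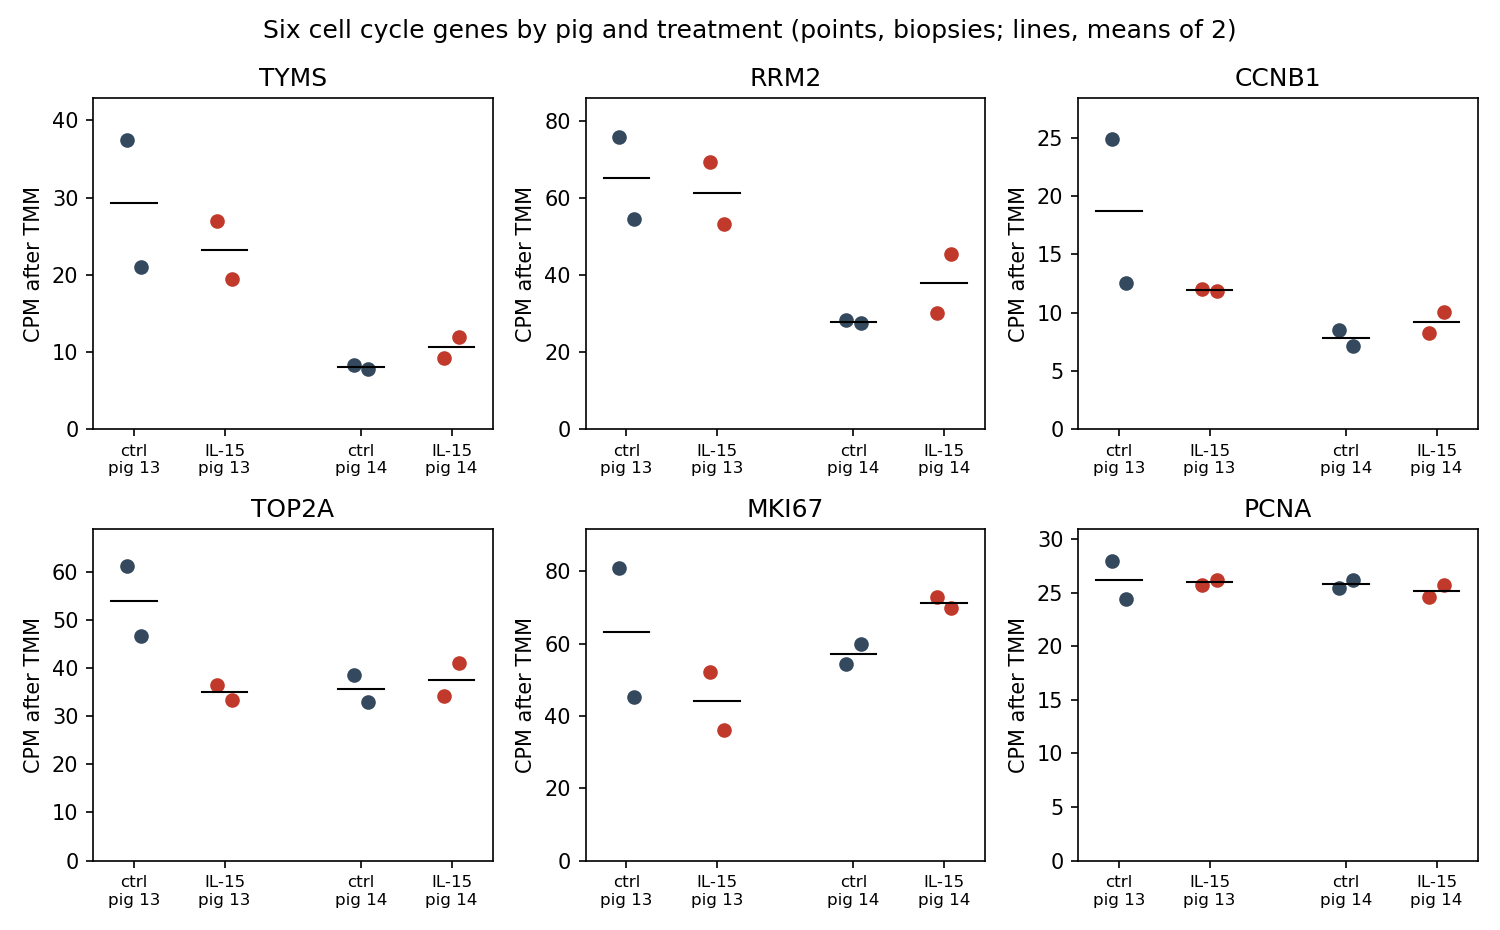
CPM in each biopsy (points) and the mean of the 2 biopsies of each pig and treatment (lines) for 6 cell cycle genes, with axes that start at 0. TYMS and RRM2 are higher in all 4 biopsies of pig 13 than in any of pig 14, and PCNA lies between 24.4 and 27.9 CPM throughout. TOP2A is lower at both injected sites than at both controls in pig 13, and its sites overlap in pig 14. The mean of MKI67 is lower after injection in pig 13, where its sites overlap, and higher in pig 14.

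Between the animals, with treatment in the model, edgeR called 3 of 27 members higher in pig 13, against 4.34% of all genes, and 0 higher in pig 14, against 6.39%. The 3 were TYMS, the licensing factor CDC6 and the kinetochore motor CENPE. Since each animal is a single pig, these values describe these animals only. The members as a whole were above 0 for 23 of 27, with a median log2 difference of 0.27 (pig 13 minus pig 14) against 0.00243 over all genes. All 4 biopsies of pig 13 were above all 4 of pig 14 for 5 members (CDC6, MCM6, TYMS, CCNB1 and CENPE), against 8.73% of all genes. The reverse held for no member, against 9.87% of all genes.

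TYMS (ENSSSCG00000040678, chromosome 6, 105640031 to 105660601, reverse strand) showed the largest difference of the members. It read 19.4 and 26.9 CPM at injected sites and 21.0 and 37.5 CPM at controls of pig 13, and 12.0 and 9.24 CPM at injected sites and 7.75 and 8.37 CPM at controls of pig 14. The lowest biopsy of pig 13 was above the highest of pig 14. TYMS averaged 26.2 ± 8.20 CPM (SD, n = 4) in pig 13 and 9.34 ± 1.87 CPM in pig 14, a 2.81-fold difference (log2 1.49 ± 0.23, adjusted p = 0.00544, edgeR). It was called when any 1 biopsy was left out, with log2 differences between 1.23 and 1.66. The gene shares 300 of its 2408 exonic bases with ENOSF1 on the other strand, and the sources used here do not say if reads were counted by strand. ENOSF1 itself differed by 0.11 ± 0.11 between the pigs (adjusted p = 0.546, edgeR).

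RRM2 (ENSSSCG00000031741, chromosome 3, 126340707 to 126365645), which supplies deoxynucleotides as TYMS does, was also higher in pig 13. It read 53.4 and 69.3 CPM at injected sites and 54.5 and 75.7 CPM at controls of pig 13, and 45.5 and 30.2 CPM at injected sites and 27.5 and 28.3 CPM at controls of pig 14. All 4 values of pig 13 exceeded all 4 of pig 14, by 1.95-fold (log2 0.96 ± 0.18, adjusted p = 0.0105, edgeR), and the call held when any 1 biopsy was left out.

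CDC6 (ENSSSCG00000017471, chromosome 12, 22101282 to 22118593) read 2.87, 3.39, 2.84 and 4.94 CPM in pig 13 and 2.02, 1.70, 2.29 and 2.01 CPM in pig 14, and the animals did not overlap. The log2 difference was 0.80 ± 0.22 (adjusted p = 0.0438, edgeR). CENPE (ENSSSCG00000023296, chromosome 8, 117889009 to 117965792), which carries chromosomes along spindle microtubules, read 19.0, 20.7, 22.5 and 27.5 CPM in pig 13 and 16.7, 11.9, 15.2 and 17.2 CPM in pig 14, again without overlap (0.55 ± 0.13, adjusted p = 0.0253, edgeR). Both calls depended on single biopsies. Without site 7b the differences were 0.61 ± 0.21 for CDC6 (adjusted p = 0.106) and 0.47 ± 0.13 for CENPE (adjusted p = 0.0529, edgeR), so that TYMS was the only member called. The same held without injected site 12e of pig 13, and without site 12d, 6b or 7e of pig 14. CDC6 was called in 1 of the 8 fits that leave out a biopsy and CENPE in 3.

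The proliferation markers were not called for this difference with all 8 biopsies. TOP2A was 0.25 ± 0.16 higher in pig 13 on the log2 scale (adjusted p = 0.362, edgeR), PCNA differed by 0.03 ± 0.09 and MKI67 by -0.27 ± 0.24 (adjusted p = 0.519). Without site 7b, MKI67 was called lower in pig 13, at -0.55 ± 0.14 (adjusted p = 0.0318, edgeR). The cell type markers also differed between these animals. Of the 10 T and NK cell markers tested, 8 were called higher in pig 14, against 6.39% of all genes. The summed level of this list was 24.51 to 33.16 CPM in pig 13 and 47.66 to 88.15 CPM in pig 14. Basal keratinocyte markers summed to 14140 to 22680 CPM in pig 13 and 7866 to 14720 CPM in pig 14. Of these 10 markers 9 lay above 0 (pig 13 minus pig 14), and DST was at -0.13 ± 0.12. Only 1 of the 10 was called higher in pig 13, against 4.34% of all genes. It was KRT5, the keratin of the basal layer (0.89 ± 0.25, adjusted p = 0.0484, edgeR). That fit includes site 7b, where KRT5 was highest at 10850 CPM. Of the 10 differentiated keratinocyte markers 7 lay above 0, with a median of 0.39 (pig 13 minus pig 14). Of the 13 hair follicle markers 2 did, with a median of -0.26. The part of these cell types in the difference of TYMS and RRM2 was not tested.

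**Figure D5:**
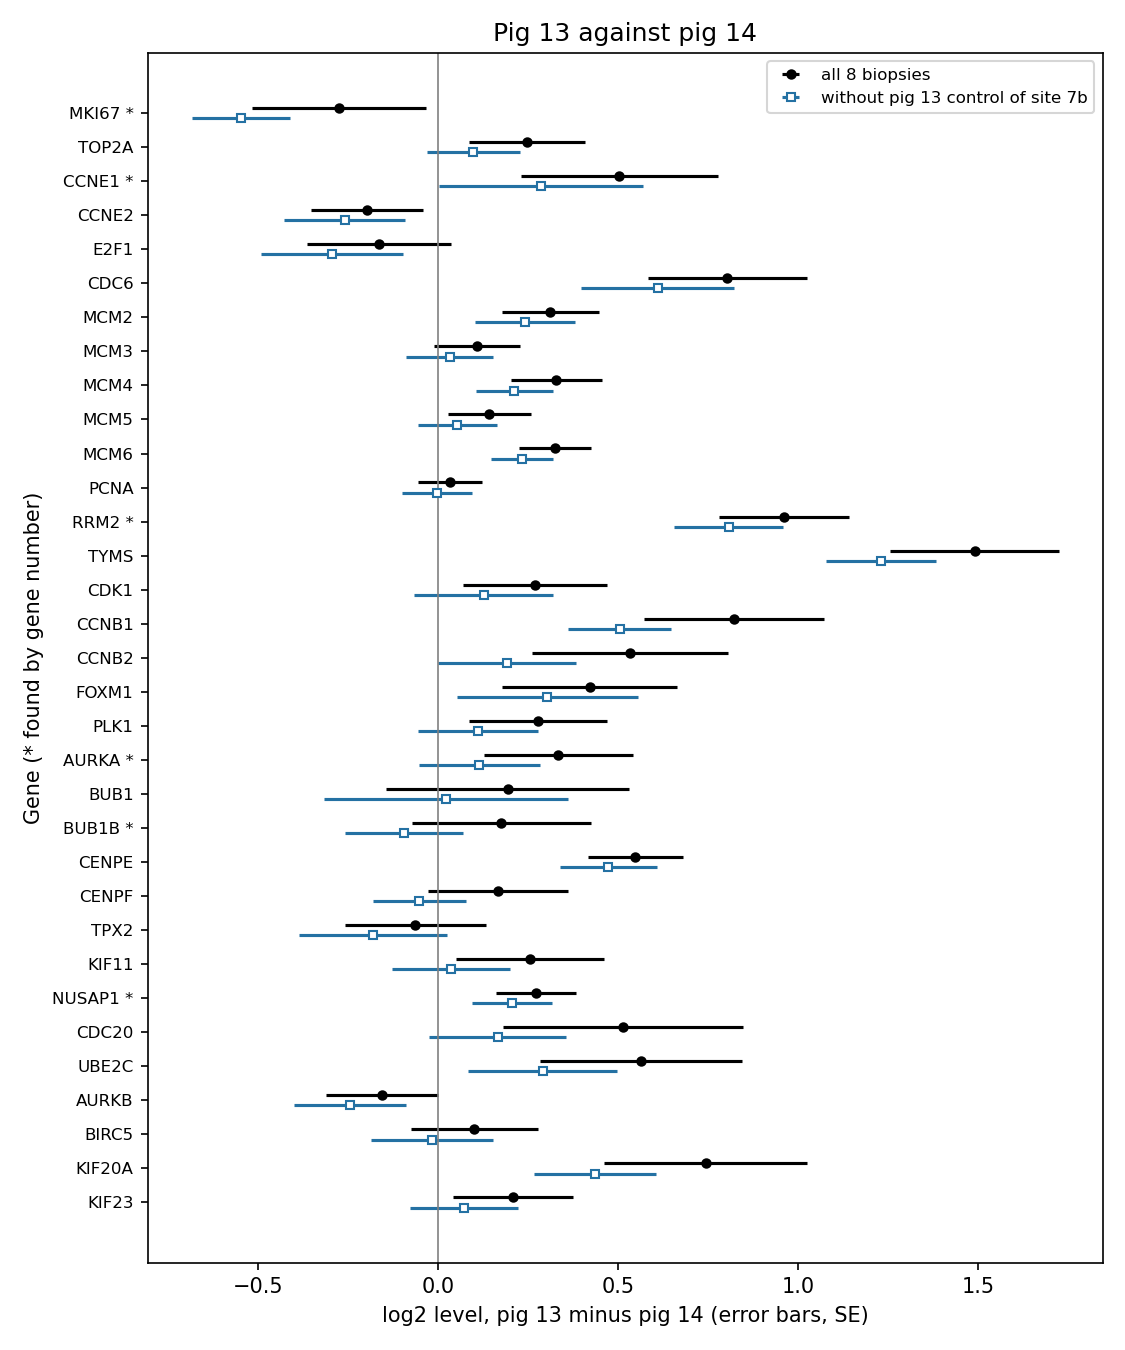
Log2 level of each cell cycle gene in pig 13 minus pig 14 with its standard error; filled circles use all 8 biopsies and open squares leave out the pig 13 control of site 7b. TYMS (1.49, and 1.23 without that biopsy) and RRM2 (0.96 and 0.81) lie farthest above 0, and MKI67 lies below 0.

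Other genes of the pathway were read from 4 further lists, and edgeR called 0 of their genes after injection. Of 14 G1 cyclins, kinases and pocket proteins, 8 lay above 0 (median 0.03, 3 at an unadjusted p under 0.05). The smallest p belonged to cyclin D1 (CCND1), which growth signals induce in G1. It read 132.4, 130.2, 142.3 and 126.7 CPM at injected sites and 122.7, 100.3, 99.76 and 98.09 CPM at controls. Every injected site was above every control, with a log2 change of 0.34 ± 0.10 that was not called (adjusted p = 0.895, edgeR). Of the 14 genes 1, CCND1, had every injected site above every control of its own pig, against 3.11% of all genes. RBL1, a pocket protein that restrains E2F, had a change of -0.23 ± 0.09 (adjusted p = 0.964).

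Of 14 CDK inhibitors and p53 targets found, 3 lay above 0 and 11 below (median -0.06, 2 at an unadjusted p under 0.05). The genes with the smallest p were the stress genes GADD45B, at 0.31 ± 0.09, and GADD45A, at 0.51 ± 0.15 (adjusted p = 0.895 for both, edgeR). GADD45A read 60.34, 55.93, 32.84 and 39.75 CPM at injected sites and 28.87, 41.33, 25.43 and 34.05 CPM at controls, where injected sites were above both controls in pig 13 and overlapped them in pig 14. Between the pigs 1 of the 14 CDK inhibitors and p53 targets was called higher in pig 13, against 4.34% of all genes. It was CDKN1A, the p53-induced inhibitor of CDKs (0.37 ± 0.10, adjusted p = 0.0382, edgeR). Of the 14 G1 genes 1 was called higher in pig 14, against 6.39% of all genes. It was CCND2, a cyclin D (pig 13 minus pig 14, -0.36 ± 0.10, adjusted p = 0.0398, edgeR).

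Of 32 other licensing and synthesis genes, 21 lay above 0 after injection (median 0.05, 1 at an unadjusted p under 0.05), led by the maintenance methyltransferase DNMT1 (0.26 ± 0.09) and the polymerase subunit POLD1 (0.24 ± 0.12). Of 41 other mitosis genes tested, 6 lay above 0 and 35 below (median -0.13, 1 at an unadjusted p under 0.05), led by the checkpoint kinase TTK (-0.58 ± 0.21) and the spindle protein DLGAP5 (-0.29 ± 0.13). Each of these had an adjusted p of 0.964 in edgeR's quasi-likelihood test. The other mitosis genes shared the pattern of the members, since 33 of 41 (80.5%) were highest in the pig 13 control of site 7b, against 19.8% of all genes. Their lean below 0 as a list was not examined without that biopsy. Between the pigs 2 of the 41 were called higher in pig 13, against 4.34% of all genes. They were CDC25B, the phosphatase that activates CDK1 (0.54 ± 0.12, adjusted p = 0.0200, edgeR), and PTTG1, or securin (0.94 ± 0.27, adjusted p = 0.0497, edgeR).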

How the data were processed

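Total RNA of whole biopsies was extracted with a lipid tissue kit and depleted with RiboZero Gold, per the labels' protocols. STAR 2.5.1a, featureCounts 1.4.6-p5 of Subread, bcl2fastq and the build Sscrofa11.1 are named in the submitters' processing notes. Raw counts per Ensembl gene were deposited as 1 table and as 1 file per biopsy, per the file headers. The files per biopsy also hold CPM and RPKM, which the authors computed from those counts, per the file headers. The deposited CPM and RPKM were only compared with the counts. The file of the pig 13 control of site 7b held 607 complete genes, all equal to the table, so that biopsy was read from the table. The table's 425 genes on several rows had identical counts and were kept once.

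With R 4.3.3 and edgeR 4.0.16, filterByExpr at a minimum count of 10 left 19862 genes. Counts were scaled by TMM and tested with the quasi-likelihood F test, robust, with pig and treatment as terms, or with their interaction, at a Benjamini-Hochberg adjusted p under 0.05 over all genes. CPM in the text is after TMM scaling, RPKM is that CPM per kilobase of the gene length in the files, and intervals cover 95%. The biological coefficient of variation came to 19.8%. Pig entered as a block because the labels name the animal. As checked, deviations from group means correlated at 0.196 to 0.584 between injected and control biopsies of the same pig. They correlated negatively between pigs, but deviations within a group sum to 0, so this follows in part from the centring and is no separate check. Every pair of biopsies differed by more than sampling noise. The procedure was tested on simulated data.

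Alternatives were no replicate block, DESeq2 1.42.0, RLE scaling, no filter on low counts, a mean CPM of at least 1, no robust estimation, limma 3.58.1 voom with sample weights, and each biopsy left out in turn. Scaling by library size only was added after seeing the data, as were the count of members highest at site 7b and the alternatives for the pathway lists.

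The members and lists were chosen with earlier results of these data known. Values per biopsy were given for MKI67, TOP2A, PCNA and CDK1, for the member of each role with the highest mean RPKM or the smallest p, and for the 3 members with the smallest p in the interaction and in the pig term. In each pathway list the 2 genes with the smallest p and any called gene were named. RRM2 in the pig comparison and the basal keratin KRT5 fall outside this rule and were picked with their values in view.

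The marker lists of 10 cell types, with the range of their summed CPM at injected and at control sites and the leading gene, read as follows. Basal keratinocytes (KRT5) had 12790 to 16940 and 7866 to 22680. Differentiated keratinocytes (KRT10) had 6615 to 13570 and 10390 to 26100. The hair follicle (KRT71) had 3524 to 5348 and 1443 to 5165, and the sebaceous gland (FADS2) had 44.76 to 58.62 and 35.89 to 79.19. Fibroblasts (COL1A1) had 77720 to 190800 and 19420 to 192900, and endothelium (VWF) had 709.3 to 1023 and 640.6 to 877. Adipocytes (ADIPOQ) had 792.5 to 3100 and 728.8 to 3433. T and NK cells (IL2RB) had 25.42 to 79.92 and 24.51 to 88.15, B and plasma cells (JCHAIN) had 9.037 to 15.53 and 10.28 to 16.67, and macrophages and dendritic cells (CSF1R) had 338 to 454.4 and 238.4 to 582.4. No marker found was at 0 in every biopsy. No sequence was printed.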

Additional observations from a re-analysis of the deposited data

Results flagged for a closer look

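In 5 cases the highest or lowest of the 4 biopsies of a group lay farther from its nearest neighbour, as a share of the group's range, than Dixon's 95% critical value allows. Chance passes this limit in about 1 of 20 groups, and each of the 27 members was screened among controls and among injected biopsies. Each group also mixes 2 pigs, which the limit does not take into account. Among controls the pig 13 biopsy of site 7b was high for CCNB2, at 9.32 CPM against 3.43 to 4.38 (share 0.838), for CENPF, at 46.6 CPM against 25.9 to 29.3 (0.835), and for MCM5, at 24.9 CPM against 18.7 to 19.6 (0.858). Among injected biopsies CCNE2 was low at site 12e of pig 13, at 4.83 CPM against 5.50 to 5.52 (0.973). MCM4 was low at site 12d of pig 14, at 28.1 CPM against 30.9 to 31.2 (0.923).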

How the results depend on the processing

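The count of 0 members called after injection held under every alternative, and the pathway lists had 0 called in each. Over all genes 7 were called, 56 with DESeq2 and 3 to 19 when 1 biopsy was left out. For the pig difference 3 members were called, 6 with DESeq2, 7 with scaling by library size only and 1 to 4 with 1 biopsy left out. Over all genes 863 were called higher in pig 13 and 1270 higher in pig 14 in the main fit. More genes were called with DESeq2 and with library size only, so those rises were not particular to the members. With 1 biopsy left out 1142 to 2240 genes were called for this difference. Library size only moved the median pig difference of all genes from 0.00243 to 0.21 and that of the members from 0.27 to 0.48. The median pig difference ran from 0.11 to 0.40 with 1 biopsy left out, and the members' median change from -0.20 to 0.06. The members' median response difference ran from -0.77 to -0.30 with 1 biopsy left out. Those fits keep a single biopsy for 1 pig and treatment, so their calls are not counted. The number of members highest at site 7b changed by less than 1.5 times under the other scalings.

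Pig was the replicate block. Without it edgeR called 6 genes and 0 members (median -0.18), and the log2 changes after injection of UBE2C (-0.053), AURKB (0.00975) and TYMS (-0.15) turned sign. With limma-voom those of CDC20 (0.17), KIF20A (0.064), AURKB (0.099) and MKI67 (0.11) turned. With 1 biopsy left out the range of the change crossed 0 for these genes. It was -0.051 to 0.24 for PLK1, -0.030 to 0.25 for E2F1, -0.19 to 0.31 for UBE2C, -0.13 to 0.29 for TYMS and -0.00096 to 0.33 for RRM2. It was -0.20 to 0.33 for CDC20, -0.20 to 0.27 for KIF20A, -0.12 to 0.037 for NUSAP1, -0.26 to 0.00068 for KIF23 and -0.081 to 0.11 for AURKB. It was -0.57 to 0.045 for BUB1, -0.21 to 0.17 for MKI67, -0.41 to 0.073 for CCNB2, -0.30 to 0.0074 for CENPF and -0.37 to 0.10 for CCNB1. It was -0.065 to 0.015 for PCNA, -0.092 to 0.059 for MCM6, -0.43 to 0.018 for CCNE1, -0.37 to 0.033 for BUB1B and -0.28 to 0.048 for AURKA. The cause was not tested. The 95% intervals printed are not adjusted for the number of genes, so they are narrower than what the adjusted threshold would need.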
